A study of Mus musculus with 2 samples.

Results

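Efferocytosis and scavenging were read through 10 mouse genes of the 32285 in the count tables, taken by symbol: Mertk, Axl, Gas6, Sirpa, Mrc1, Stab1, Cd163, Msr1, Folr2 and Lyve1. Each was followed in phagocytes and dendritic cells of B16-F10 tumours, a mouse melanoma line grown under the skin. The tumours of one group were made from melanoma cells with a DGAT1 knockout, and those of the other from WT melanoma cells. DGAT1 catalyses the last step of triglyceride synthesis. Tumours were collected 14 days after injection, 3 per group, and viable CD45+ cells were sorted for 10x Genomics droplet sequencing. Each group is 1 library, and cells cannot be traced to their tumour. Neither the strain, sex and age of the host animals nor the number of knockout clones is stated in the labels. The edit sits in the injected tumour cells, so the host cells described below carry Dgat1 in both groups. Because each group is 1 library, no test was made, and each difference describes these 2 libraries without a replicate.

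Sequencing gave 202946827 UMIs for knockout tumours and 235652476 for WT tumours. Filtering kept 10937 knockout cells and 9049 WT cells, with a median of 10753 UMIs per knockout cell and 14070 UMIs per WT cell. The libraries shared 24 cell barcodes. Dgat1 itself was at 44.0 CPM over all kept knockout cells and at 37.3 CPM over all kept WT cells. In the melanoma-like cells that passed the sort it was at 18.8 CPM in knockout tumours and at 28.7 CPM in WT tumours. These levels do not check the labels, because a tag outside the edited part would still be counted. The labels call the cells melanoma, but melanoma-like cells made up 1.45% of kept knockout cells and 5.48% of kept WT cells, and Ptprc, which encodes CD45, was at 1051 CPM over all kept knockout cells and 699 CPM over all kept WT cells.

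Phagocytes clear dying cells by efferocytosis. Bridging proteins such as Gas6 bind the phosphatidylserine that a dying cell exposes and link it to receptor tyrosine kinases of the TAM family, among them Mertk and Axl, which then drive engulfment. Sirpa holds uptake back when it meets CD47 on a target. Scavenger receptors such as Mrc1 (CD206), Stab1, Cd163 and Msr1 take up glycoproteins, debris, haemoglobin complexes and modified lipoproteins. Folr2, a folate receptor, and Lyve1, a hyaluronan receptor, mark subsets of tissue macrophages in mice.

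Mertk and Folr2 are shown by the 250 bases before their starts, because these members stood apart between the libraries in opposite directions in macrophage-like cells. The sequences are from the RefSeq promoter table for GRCm38.p6, in which 7 of the 10 members matched, and run 5′ to 3′ on the strand that the table gives. The bases after the start were found in the annotated transcripts of Folr2 but not in those of Mertk, whose start in the table lies before the annotated start of the gene. Mertk has 1 start, at chr2:128698665-128698914 on the plus strand. Folr2 has 2 starts on the minus strand, the first at chr7:101857191-101857440 and the second at chr7:101845332-101845581. Capitals mark matches to 3 motifs searched on both strands: GAGGAA, the core of PU.1 sites, AGGTCA, a nuclear receptor half-site, and TGCTGA, a half-site of MAF factors.
Mertk: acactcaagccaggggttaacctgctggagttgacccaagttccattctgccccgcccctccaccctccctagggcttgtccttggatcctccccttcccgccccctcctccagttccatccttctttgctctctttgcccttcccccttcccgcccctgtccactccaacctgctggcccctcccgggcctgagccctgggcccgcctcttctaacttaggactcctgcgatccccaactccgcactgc
Folr2, first start: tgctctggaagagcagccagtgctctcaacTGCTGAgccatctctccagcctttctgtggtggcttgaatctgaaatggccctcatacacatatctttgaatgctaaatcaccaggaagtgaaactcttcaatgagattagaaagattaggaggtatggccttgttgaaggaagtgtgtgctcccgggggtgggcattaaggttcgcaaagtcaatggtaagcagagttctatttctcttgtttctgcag
Folr2, second start: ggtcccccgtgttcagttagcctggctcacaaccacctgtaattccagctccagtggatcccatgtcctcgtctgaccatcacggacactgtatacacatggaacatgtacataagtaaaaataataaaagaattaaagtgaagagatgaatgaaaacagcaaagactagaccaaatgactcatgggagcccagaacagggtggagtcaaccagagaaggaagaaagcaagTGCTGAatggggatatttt
The Mertk window held no match, and each Folr2 window held 1 match to the MAF half-site. Of the 32851 promoters in the table, 23.3% held GAGGAA, 14.0% held AGGTCA and 16.1% held TGCTGA in the same window. A match is a string of letters in these windows and says nothing about binding. No promoter is printed for Sirpa, Msr1 and Lyve1.

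The genes lie on several chromosomes of mm10. Mertk (ENSMUSG00000014361) spans 128698956 to 128802894 on the plus strand of chromosome 2, which also carries Mrc1 and Sirpa, and overlaps the antisense gene Gm14011. Folr2 (ENSMUSG00000032725) spans 101839988 to 101857194 on the minus strand of chromosome 7, which also carries Axl and Lyve1. Gas6 and Msr1 lie on chromosome 8, Cd163 on chromosome 6 and Stab1 on chromosome 14, and Gas6 overlaps Tmem255b on the other strand. Each value is a sum over the gene as counted, and exons, introns and isoforms were not told apart.

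Cells were put into classes by marker genes that include no member. The compared classes were those with at least 50 cells in each library. There were 1364 macrophage-like cells, marked by C1q genes, Trem2 and Ms4a7, in knockout tumours and 2879 in WT tumours. Inflammatory phagocyte-like cells, marked by Inhba, Slc7a2 and Egln3, numbered 553 in knockout tumours and 152 in WT tumours, and monocyte-like cells, marked by Ly6c2, Ccr2 and Vcan, 1957 in knockout tumours and 888 in WT tumours. The other compared classes were non-classical monocyte-like cells (138 knockout and 68 WT), neutrophil-like cells (215 knockout and 106 WT), cDC1-like cells (132 knockout and 155 WT), cDC2-like cells (308 knockout and 109 WT) and mature dendritic-like cells (280 knockout and 169 WT). Plasmacytoid dendritic-like cells, 115 knockout and 36 WT, are given as levels only. The 10 genes with the highest fold in each class included at least 2 of its own markers and none of another class. This is no independent check, because the cells were gated on these same markers. A class is a range of a score and not a sharp type: 444 of the 1674 knockout cells and 536 of the 3256 WT cells that scored best as macrophage lay near the limits of the gate. For monocytes these were 1009 of 2714 knockout cells and 512 of 1240 WT cells. Macrophage-like cells were shallower in knockout tumours, with a median of 17299 UMIs against 21393 in WT tumours, and their median mitochondrial share was 3.58% in knockout tumours and 2.89% in WT tumours.

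Levels are CPM, a count per 1000000 UMIs of the class and library, with exact Poisson intervals at 95%. Ratios are log2, knockout over WT, for members that reached 50 UMIs over both libraries, with exact conditional intervals. Both intervals cover counting error only, and they are too narrow where the UMIs of a gene lie in few cells. In macrophage-like cells all 10 members reached 50 UMIs. Of these, 2 were at least 1.5-fold higher in knockout tumours (Mertk and Cd163), where 6.27% of all 13168 genes measured in the class were. Folr2 was the 1 member at least 1.5-fold lower, against 5.11% of all genes. The median log2 ratio of the members was 0.06 and that of all genes was -0.00116.

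**Figure D1:**
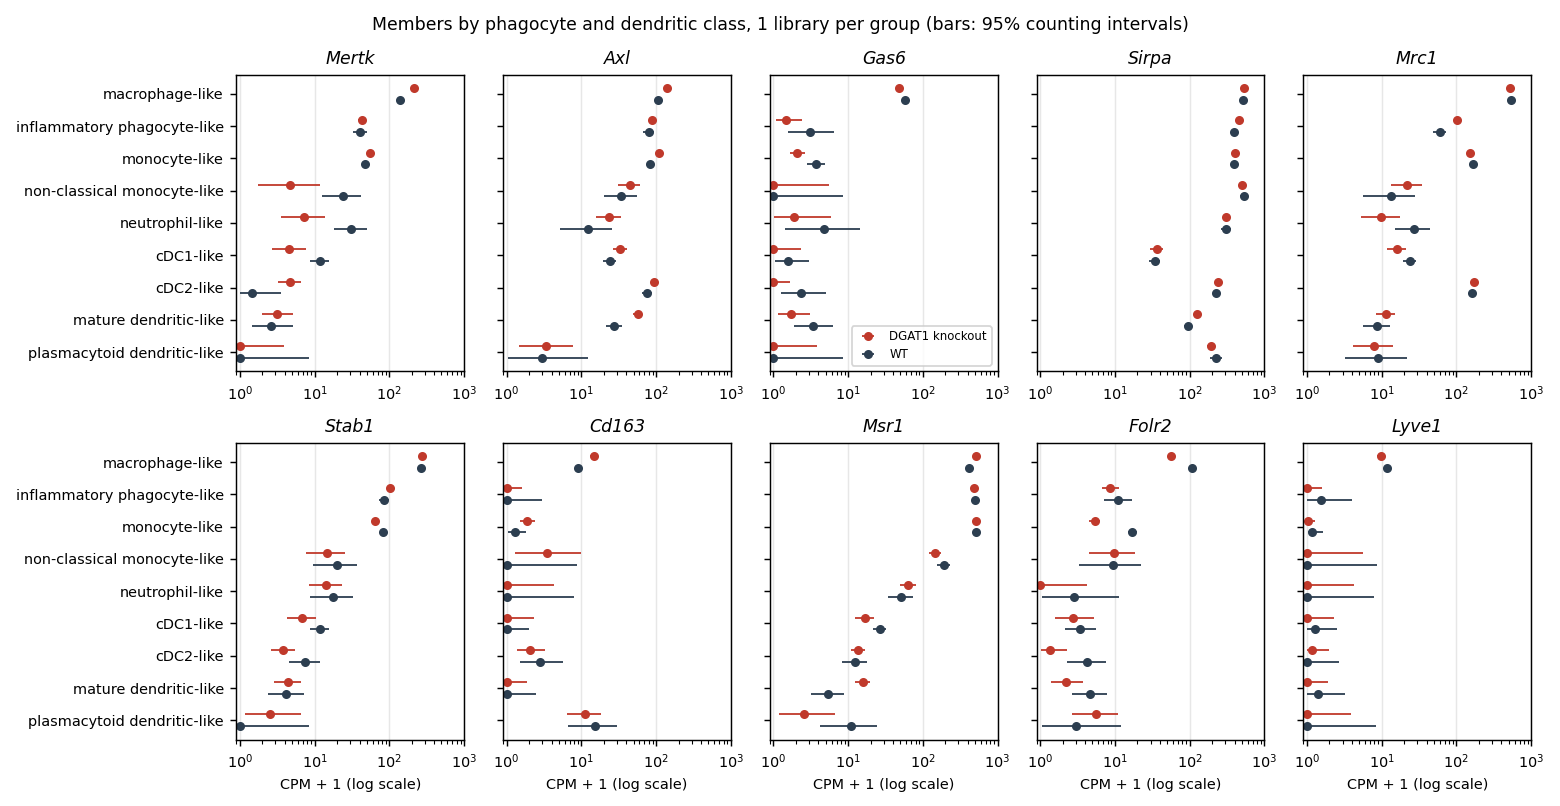
CPM plus 1 on a log axis for each member in 9 phagocyte and dendritic classes, knockout above WT in each class, with bars for 95% counting intervals. Mertk, Gas6, Folr2 and Lyve1 are highest in macrophage-like cells in both libraries, and Sirpa and Msr1 stay high across monocytes and inflammatory phagocytes.

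Gas6, the bridging ligand, was at its highest phagocyte and dendritic level in macrophage-like cells, at 47.5 CPM in knockout tumours (44.9 to 50.2) and 57.0 CPM in WT tumours (55.2 to 58.8). Their log2 ratio was -0.26 (-0.36 to -0.17). This direction turned once the macrophage sub-gates described below were weighted alike, where the ratio was 0.58. That weighting lets resident-like cells, 3.30% of knockout and 6.39% of WT macrophages, count as much as each other sub-gate. Within sub-gates the Gas6 ratio was 0.72 in resident-like, -0.31 in cycling, 0.19 in Arg1-high and -0.03 in Arg1-low cells. The intervals in Arg1-high and Arg1-low cells span 0. Monocyte-like cells held 22 Gas6 UMIs in knockout tumours and 29 in WT tumours, or 1.10 CPM in knockout tumours and 2.67 CPM in WT tumours. That ratio of -1.28 (-2.15 to -0.43) was 0.14 when cells had to lead the next class by 0.15 in score. Inflammatory phagocyte-like cells held 3 knockout and 4 WT UMIs, and mature dendritic-like cells 3 knockout and 6 WT UMIs. Gas6 was at 0.182 CPM in knockout T-like cells and 0.542 CPM in WT T-like cells, near the free RNA level of 0.185 CPM in knockout tumours and 0.411 CPM in WT tumours. The free RNA share was itself set from C1q and melanoma genes in T-like cells, so this nearness is no independent check. Free RNA could give 16.8% of the Gas6 level in knockout monocyte-like cells and 15.4% in WT ones.

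Mertk, the TAM receptor typical of tissue macrophages, was higher in knockout tumours. In macrophage-like cells it was at 211 CPM in knockout tumours (205 to 216) and 138 CPM in WT tumours (136 to 141), a log2 ratio of 0.61 (0.56 to 0.65). The UMIs were spread widely, with 5.35% of knockout UMIs and 3.33% of WT UMIs in the 10 cells that held most. At a common depth of 4000 UMIs, 45.7% of knockout macrophages (43.0 to 48.5) and 36.5% of WT macrophages (34.7 to 38.4) had a Mertk UMI, against 0.287% of knockout and 0.403% of WT T-like cells, which should lack the gene and had a median of 17048 UMIs in knockout tumours and 19558 in WT tumours. Thinning left out 61 shallower knockout macrophages and 210 WT ones. Without thinning the shares of macrophages were 72.3% in knockout tumours and 66.9% in WT tumours. With cells of at most 5% mitochondrial UMIs the log2 ratio was 0.52, below 1.5-fold, and the range over 13 alternatives was 0.52 to 0.73.

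Mertk was lower outside macrophages. Monocyte-like cells had 54.0 CPM in knockout tumours (50.9 to 57.3) and 46.8 CPM in WT tumours (42.8 to 51.0), a ratio of 0.21 (0.05 to 0.36) that was -0.16 above the UMI threshold. Inflammatory phagocyte-like cells had 41.9 CPM in knockout tumours and 39.8 CPM in WT tumours, with an interval of the log2 ratio from -0.30 to 0.47. The alternatives spread that ratio from -0.33 with thinned cells to 0.72 at a gate score of at least 0.4 and 1.13 above the UMI threshold. In the other compared classes Mertk had at most 21 UMIs in knockout tumours and 39 in WT tumours, and no ratio is given.

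Axl, the TAM receptor that inflammatory signals raise, reached further than Mertk. It was at 140 CPM in knockout macrophage-like cells (135 to 144) and 106 CPM in WT ones (103 to 108), a log2 ratio of 0.40 (0.34 to 0.46). Monocyte-like cells had 107 CPM in knockout tumours (103 to 112) and 83.3 CPM in WT tumours (77.9 to 88.9), a ratio of 0.37 (0.26 to 0.48). In both classes Axl was higher in knockout tumours by less than 1.5-fold under each alternative run. Inflammatory phagocyte-like cells, at 87.3 CPM in knockout tumours and 78.5 CPM in WT tumours, had an interval that spans 0 (-0.11 to 0.43).

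Axl was also counted in dendritic cells. Mature dendritic-like cells had 55.7 CPM in knockout tumours (48.8 to 63.4) and 26.7 CPM in WT tumours (20.7 to 33.9), a log2 ratio of 1.06 (0.66 to 1.48), and the range over 11 alternatives was 0.66 to 1.33. The 10 cells with most UMIs held 33.2% of the 232 knockout UMIs and 71.6% of the 67 WT UMIs. cDC2-like cells had 91.9 CPM in knockout tumours and 75.1 CPM in WT tumours (ratio 0.29, 0.04 to 0.55). Over the alternatives that ratio ran from -0.04, at a gate score of at least 0.4, to 0.62. The 10 cells with most UMIs held 25.6% of the knockout and 58.5% of the WT UMIs there. cDC1-like cells had 32.3 CPM in knockout tumours and 23.0 CPM in WT tumours (0.49, 0.05 to 0.94), a ratio that ran from 0.17 to 1.05 over the alternatives. Axl was found in T-like cells, at 12.4 CPM in knockout tumours and 12.6 CPM in WT tumours, where free RNA was at 1.57 CPM in both. At 4000 UMIs an Axl UMI was found in 38.2% of knockout macrophages and 31.7% of WT macrophages, against 4.66% of knockout and 4.59% of WT T-like cells. Without thinning, 71.0% of knockout macrophages and 66.8% of WT macrophages had one.

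Sirpa, the receptor that brakes uptake, was under 1.5-fold apart between the libraries in each compared class. Macrophage-like cells had 535 CPM in knockout tumours and 522 CPM in WT tumours, a log2 ratio of 0.04 (0.01 to 0.06). Monocyte-like cells had 406 CPM in knockout tumours and 390 CPM in WT tumours (0.06, 0.00 to 0.11), and that ratio was -0.03 above the UMI threshold. Inflammatory phagocyte-like cells had 463 CPM in knockout tumours and 393 CPM in WT tumours (0.24, 0.12 to 0.36). Mature dendritic-like cells had 123 CPM in knockout tumours and 95.2 CPM in WT tumours (0.37, 0.15 to 0.60). cDC2-like cells had 235 CPM in knockout tumours and 226 CPM in WT tumours, and cDC1-like cells had 35.2 CPM in knockout tumours and 33.1 CPM in WT tumours. Plasmacytoid dendritic-like cells had 191 CPM in knockout tumours and 225 CPM in WT tumours. Near copies such as Sirpb1a can share reads with Sirpa, and the labels do not say how the counting split them.

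**Figure D2:**
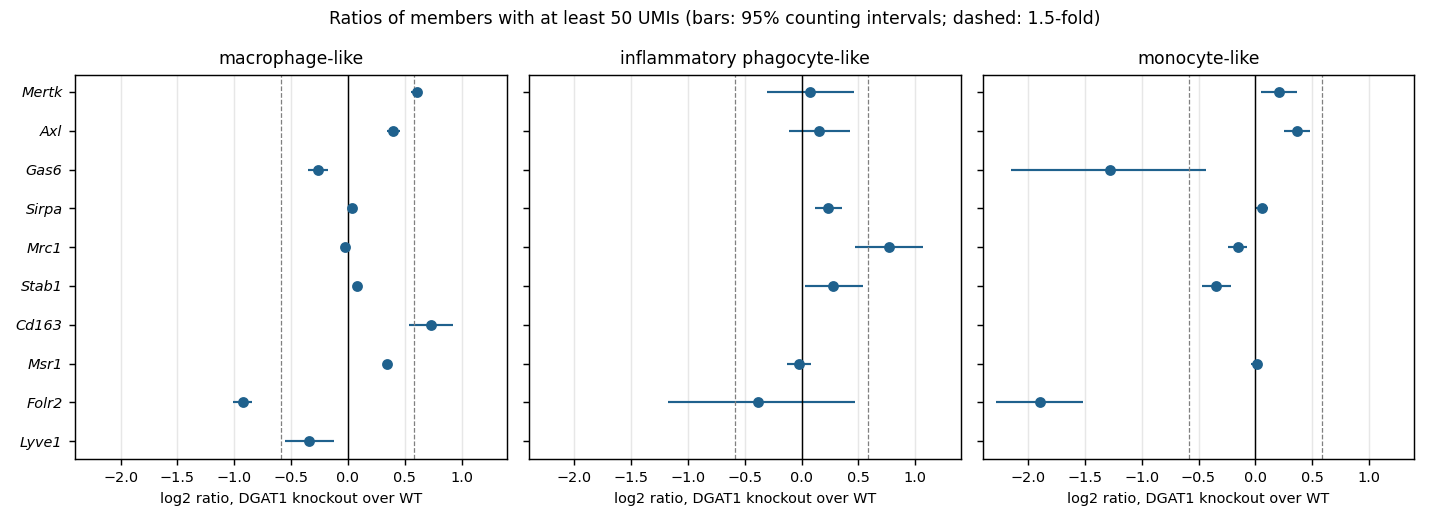
Log2 ratio of each member, knockout over WT, in macrophage-like, inflammatory phagocyte-like and monocyte-like cells, with 95% counting intervals and dashed lines at 1.5-fold; members under 50 UMIs in a class are left out. Mertk at 0.61 and Folr2 at -0.93 lie outside the dashed lines in macrophage-like cells, and Sirpa, Mrc1 and Stab1 lie near 0.

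Mrc1, the mannose receptor, was at 528 CPM in knockout macrophage-like cells (519 to 536) and 536 CPM in WT ones (530 to 541), a log2 ratio of -0.02 (-0.05 to 0.01). Monocyte-like cells had 149 CPM in knockout tumours and 166 CPM in WT tumours, a ratio of -0.15 (-0.24 to -0.07). Inflammatory phagocyte-like cells stood apart, with 100.2 CPM in knockout tumours (92.5 to 108) and 58.9 CPM in WT tumours (48.4 to 70.9), a ratio of 0.77 (0.47 to 1.07). The 10 cells with most UMIs held 39.2% of the knockout UMIs and 70.3% of the WT UMIs there. The ratio was below 1.5-fold with a gate score of at least 0.4, at 0.55, and above the UMI threshold, at 0.57. cDC2-like cells carried Mrc1 too, at 169 CPM in knockout tumours and 162 CPM in WT tumours.

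Stab1, a clearance receptor for phosphatidylserine and modified proteins, was at 276 CPM in knockout macrophage-like cells and 261 CPM in WT ones, a log2 ratio of 0.08 (0.04 to 0.12). In monocyte-like cells it was lower in knockout tumours, at 63.6 CPM against 80.7 CPM in WT tumours, a ratio of -0.34 (-0.47 to -0.22). In inflammatory phagocyte-like cells Stab1 was at 102 CPM in knockout tumours and 84.3 CPM in WT tumours, a ratio of 0.28 (0.03 to 0.54). Stab1 overlaps Nt5dc2 on the other strand, and reads of the overlap cannot be told apart without the strand setting.

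Msr1, the class A scavenger receptor, was higher in knockout macrophage-like cells, at 518 CPM (509 to 526) against 408 CPM in WT ones (403 to 413), a log2 ratio of 0.34 (0.31 to 0.37). At 4000 UMIs, 78.1% of knockout macrophages and 71.0% of WT macrophages had an Msr1 UMI, and 2.33% of knockout and 2.12% of WT T-like cells did. Without thinning the shares of macrophages were 93.5% in knockout tumours and 89.5% in WT tumours. In monocyte-like cells the libraries had 517 CPM (knockout) and 513 CPM (WT), and in inflammatory phagocyte-like cells 485 CPM (knockout) and 493 CPM (WT), with intervals of the ratio that span 0. Mature dendritic-like cells had 14.7 CPM in knockout tumours and 4.38 CPM in WT tumours, a ratio of 1.74 (0.80 to 2.82) on 61 knockout and 11 WT UMIs. The WT value is close to free RNA, which was at 3.85 CPM in knockout tumours and 3.74 CPM in WT tumours, and over the alternatives this ratio ran from 0.78 to 4.07.

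Cd163, the haemoglobin scavenger receptor, was rare. Macrophage-like cells had 13.6 CPM in knockout tumours (12.2 to 15.1) and 8.16 CPM in WT tumours (7.49 to 8.86), a log2 ratio of 0.74 (0.54 to 0.93). The 10 cells with most UMIs held 76.4% of the 365 knockout UMIs and 54.0% of the 554 WT UMIs. Thinned to 4000 UMIs, 1.69% of knockout macrophages (1.06 to 2.54) and 1.35% of WT macrophages (0.946 to 1.86) had a Cd163 UMI, against 3.23% of knockout and 4.79% of WT macrophages without thinning, so the intervals of the thinned shares overlap and the unthinned order is the opposite. Without thinning 0.103% of knockout and 0.141% of WT T-like cells had one. Plasmacytoid dendritic-like cells carried Cd163 too. They had 10.1 CPM in knockout tumours (5.36 to 17.2, 13 UMIs) and 14.1 CPM in WT tumours (5.66 to 29.0, 7 UMIs). Both intervals include the macrophage-like level of the same library. With at most 5% mitochondrial UMIs the ratio was 0.51, and with sub-gates weighted alike it was 1.80.

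Folr2 was lower in knockout tumours. Macrophage-like cells had 55.7 CPM in knockout tumours (52.9 to 58.6) and 106 CPM in WT tumours (103 to 108), a log2 ratio of -0.93 (-1.01 to -0.85). At 4000 UMIs, 12.5% of knockout macrophages (10.8 to 14.4) and 23.8% of WT macrophages (22.1 to 25.4) had a Folr2 UMI, against 0.323% of knockout and 1.36% of WT T-like cells. Without thinning the shares of macrophages were 26.6% in knockout tumours and 45.7% in WT tumours. Weighting the sub-gates alike brought the ratio to -0.22, and the other 12 alternatives kept it between -0.99 and -0.66.

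Monocyte-like cells had 4.34 Folr2 CPM in knockout tumours (3.48 to 5.36) and 16.1 CPM in WT tumours (13.8 to 18.7), a log2 ratio of -1.89 (-2.28 to -1.51). Above the UMI threshold that ratio was -0.73. Macrophage markers were lower in the same comparison: the 5 of them summed to 424 CPM in knockout monocyte-like cells and 644 CPM in WT ones, with none at 0, and to 8252 CPM in knockout and 10457 CPM in WT macrophage-like cells. Their part in the Folr2 result was not tested. Folr2 overlaps the antisense gene Gm10602, and reads of the overlap cannot be told apart without the strand setting.

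Lyve1 was found almost wholly in macrophages. Macrophage-like cells had 8.67 CPM in knockout tumours (7.59 to 9.86) and 10.97 CPM in WT tumours (10.2 to 11.8), a log2 ratio of -0.34 (-0.56 to -0.13). The 10 cells with most UMIs held 82.0% of the 233 knockout UMIs and 52.5% of the 745 WT UMIs. With sub-gates weighted alike the ratio was 0.87, and without resident-like cells it was -1.30.

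Across the smaller classes the counts of members can be read against all genes. In inflammatory phagocyte-like cells 1 of 7 measured members was at least 1.5-fold higher (Mrc1) and 0 lower, where 9.6% of all genes were higher and 5.36% lower. In monocyte-like cells 0 of 8 were higher and 2 lower (Folr2 and Gas6), against 6.28% of all genes higher and 4.17% lower. Non-classical monocyte-like cells had 3 measured members and neutrophil-like cells 2, with none past 1.5-fold. Of all genes, 10.6% were higher and 7.91% lower in knockout non-classical monocyte-like cells, and 12.5% higher and 9.15% lower in knockout neutrophil-like cells. cDC2-like cells had 4 measured members, none past 1.5-fold, against 10.5% higher and 3.47% lower.

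In cDC1-like cells 0 of 5 measured members were higher and 3 lower, against 6.89% of all genes higher and 4.16% lower. These were Stab1 (5.74 CPM in knockout tumours and 10.7 CPM in WT tumours), Msr1 (15.8 CPM in knockout tumours and 25.7 CPM in WT tumours) and Mrc1 (15.1 CPM in knockout tumours and 22.7 CPM in WT tumours). Their log2 ratios were -0.89 (-1.83 to -0.02), -0.70 (-1.26 to -0.17) and -0.59 (-1.16 to -0.04). Stab1 rested on 16 knockout and 39 WT UMIs. The 10 cells with most UMIs held 100% of the knockout Stab1 UMIs, 90.9% of those of Msr1 and 92.9% of those of Mrc1. Macrophage markers summed to 78.9 CPM in knockout cDC1-like cells and 286 CPM in WT ones, with none at 0, and their part in this result was not tested. The Msr1 ratio was 0.01 with doublets kept and 0.02 with cells thinned to a matched depth, and the Mrc1 ratio was 0.09 with a gate score of at least 0.2. In mature dendritic-like cells 2 of 4 measured members were higher (Axl and Msr1) and 0 lower, against 9.35% of all genes higher and 3.56% lower. Macrophage markers there summed to 75.9 CPM in knockout tumours and 148 CPM in WT tumours.

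The macrophage-like class was then split by genes that are no member. Resident-like cells, with at least 2 of 6 genes such as Cbr2, Fcna and Vsig4, numbered 45 in knockout tumours and 184 in WT tumours. Cycling cells numbered 301 in knockout tumours and 892 in WT tumours, cells high in the arginine enzyme Arg1 382 in knockout tumours and 599 in WT tumours, and the rest, low in Arg1, 636 in knockout tumours and 1204 in WT tumours. The resident-like rule depends on depth, and the median in that sub-gate was 24096 UMIs in knockout tumours and 34597 in WT tumours. A gate on the summed level of the same genes gave 64 knockout cells and 159 WT cells. The cycling rule, at least 3 of 6 genes with a UMI, depends on depth too. Its median was 26639 UMIs in knockout tumours and 30281 in WT tumours. Arg1-high cells had 14598 (knockout) and 15129 (WT), and Arg1-low cells 15095 (knockout) and 17357 (WT).

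**Figure D3:**
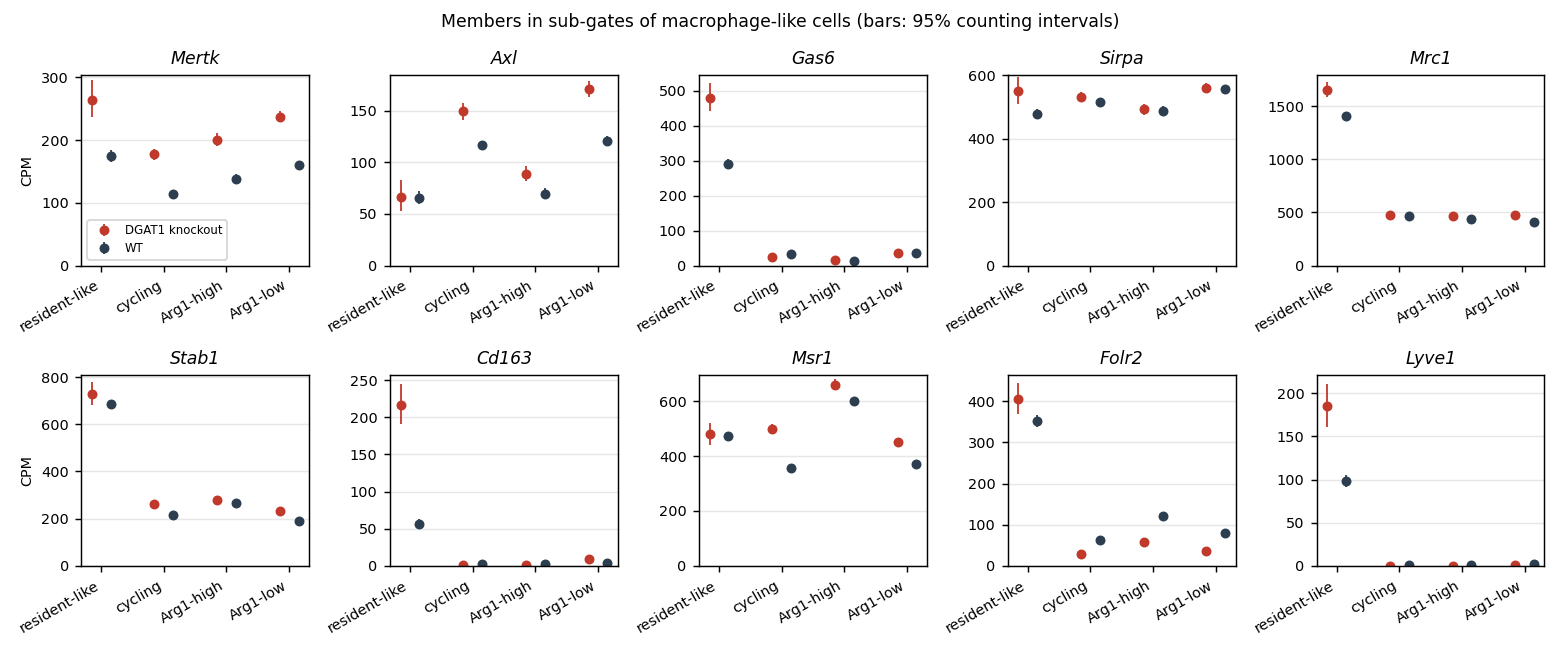
CPM of each member in 4 sub-gates of macrophage-like cells, knockout left of WT, with 95% counting intervals. Mertk is higher in knockout tumours in each sub-gate, and Folr2 is lower in knockout tumours in the cycling, Arg1-high and Arg1-low sub-gates.

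Mertk was higher in knockout tumours within each of the 4 sub-gates. It was at 264 CPM in knockout resident-like cells and 174 CPM in WT ones, and at 177 CPM in knockout and 113 CPM in WT cycling cells. It was at 201 CPM in knockout and 138 CPM in WT Arg1-high cells, and at 237 CPM in knockout and 160 CPM in WT Arg1-low cells. The log2 ratios lay between 0.53 and 0.64. Axl had ratios of 0.36, 0.36 and 0.50 in cycling, Arg1-high and Arg1-low cells, and 0.01 (-0.36 to 0.35) in resident-like cells, where its level was 66.1 CPM in knockout tumours and 65.8 CPM in WT tumours. Msr1 ran from 0.13 in Arg1-high to 0.49 in cycling cells, and was 0.02 (-0.11 to 0.15) in resident-like cells.

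Folr2 was lower by more than 1.5-fold in 3 of the 4 sub-gates. Cycling cells had 27.8 CPM in knockout tumours and 62.1 CPM in WT tumours, Arg1-high cells 58.9 CPM in knockout tumours and 122 CPM in WT tumours, and Arg1-low cells 36.8 CPM in knockout tumours and 79.7 CPM in WT tumours, with log2 ratios of -1.16, -1.05 and -1.12. Resident-like cells did not share this, with 406 CPM in knockout tumours (371 to 444) and 352 CPM in WT tumours (338 to 366), a ratio of 0.21 (0.06 to 0.35). Without the 3 cells of each library that held most Folr2 UMIs that ratio was 0.00. The difference between sub-gates was not tested.

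Mrc1 and Stab1, nearly level over all macrophages, were higher in knockout tumours in each sub-gate, by less than 1.5-fold. Mrc1 had log2 ratios of 0.24 in resident-like cells (1655 CPM in knockout tumours and 1405 CPM in WT tumours), 0.06 in cycling, 0.09 in Arg1-high and 0.23 in Arg1-low cells. Stab1 had 0.09, 0.29, 0.07 and 0.31 in the same order, with intervals that span 0 in resident-like and Arg1-high cells. Resident-like cells, in which both were highest, were 3.30% of knockout macrophages and 6.39% of WT macrophages. With resident-like cells chosen by summed level, Mrc1 in cycling cells was at -0.07 and Stab1 in resident-like cells at -0.06.

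Gas6, Cd163 and Lyve1 were concentrated in the resident-like sub-gate. Gas6 was at 480 CPM in knockout resident-like cells (442 to 521) and 292 CPM in WT ones (279 to 305), a log2 ratio of 0.72 that was 0.36 by the summed-level gate and 0.61 without the 3 cells that held most, where cycling cells had 25.5 CPM in knockout tumours and 31.6 CPM in WT tumours (-0.31). Cd163 was at 217 CPM in knockout resident-like cells (191 to 245) and 56.9 CPM in WT ones (51.4 to 62.8), a ratio of 1.93 that was 1.59 by the summed-level gate and 1.74 without the 3 cells that held most. Lyve1 had 221 of its 233 knockout UMIs and 675 of its 745 WT UMIs there, at 185 CPM in knockout tumours and 98.2 CPM in WT tumours. Its ratio of 0.91 (0.69 to 1.13) was -0.14 by the summed-level gate. No more than 45 knockout cells stand behind these levels.

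Splitting macrophages by Folr2 itself showed which members go with it in 1 cell. Cells were thinned to 4000 UMIs for the split only, and the levels are from their unthinned counts. A Folr2 UMI was then found in 163 knockout macrophages and not in 1140, and in 634 WT macrophages and not in 2035. Gas6 was at 181 CPM in knockout cells with Folr2 and 27.3 CPM in those without, a 6.64-fold ratio, and at 149 CPM in WT cells with Folr2 and 26.4 CPM in those without, 5.66-fold. Mrc1 was 2.22-fold higher with Folr2 in knockout tumours and 2.37-fold in WT tumours, and Stab1 2.25-fold in knockout tumours and 2.49-fold in WT tumours. Axl went the other way, at 101 CPM with Folr2 and 146 CPM without in knockout tumours, and at 77.4 CPM with it and 115 CPM without in WT tumours. Mertk was 1.21-fold higher with Folr2 in knockout tumours and 1.199-fold in WT tumours. Mertk was higher in knockout cells on both sides of the split, at 248 CPM against 158 CPM in WT cells with Folr2, and at 205 CPM in knockout cells against 132 CPM in WT cells without it.

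**Figure D4:**
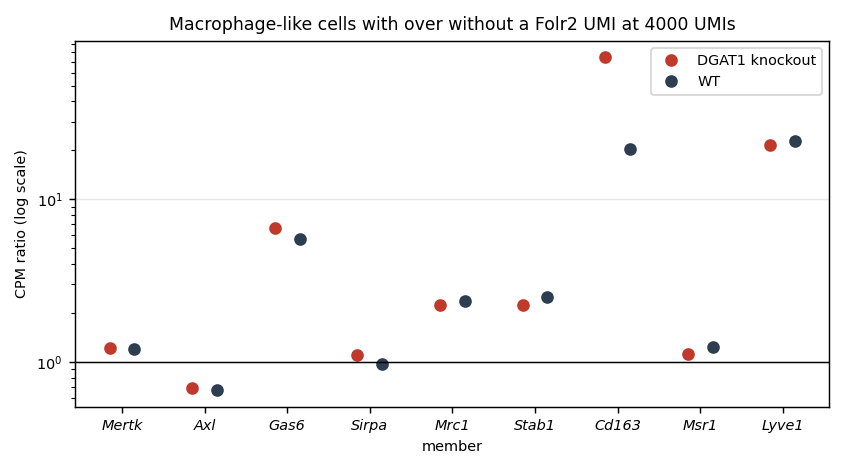
Ratio of each member's CPM in macrophage-like cells with a Folr2 UMI over those without, on a log axis, for the knockout library (left point) and the WT library. The split was made at 4000 UMIs per cell, and CPM is from unthinned counts. Cells without Folr2 held 30 Cd163 UMIs in knockout tumours and 71 in WT tumours. The libraries lie close together for Mertk, Axl, Mrc1, Stab1 and Lyve1, and apart for Cd163 at 74.5 in knockout tumours and 20.4 in WT tumours.

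Cells with a Lyve1 UMI were fewer, 19 knockout and 33 WT macrophages. In these, Mrc1 was at 2492 CPM in knockout tumours (2345 to 2646) and 2387 CPM in WT tumours (2301 to 2475), and Axl at 25.5 CPM in knockout tumours (12.7 to 45.6) and 17.2 CPM in WT tumours (10.7 to 26.3). Cd163 was at 507 CPM in knockout cells with Lyve1 and 190 CPM in WT cells with Lyve1.

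A further 46 genes of efferocytosis, listed by role, were read beside the members, and 41 of them reached 50 UMIs in macrophage-like cells. There, 8 were at least 1.5-fold higher in knockout tumours and 5 lower, with a median log2 ratio of 0.10, where 6.27% of all genes were higher and 5.11% lower. In inflammatory phagocyte-like cells 4 were higher and 3 lower of 34, against 9.6% and 5.36% of all genes, and in monocyte-like cells 4 higher and 3 lower of 37, against 6.28% and 4.17%. Of 4 receptors that sense find-me signals, Cx3cr1 and Gpr132 were past 1.5-fold in macrophages and P2ry2 and S1pr1 were not. Cx3cr1, the fractalkine receptor, was at 96.9 CPM in knockout tumours and 48.6 CPM in WT tumours (log2 ratio 0.996, 0.92 to 1.07), and Gpr132, which senses lysophospholipid and lactate, at 39.8 CPM in knockout tumours and 19.8 CPM in WT tumours (1.01, 0.89 to 1.13). Gpr132 was also higher in knockout inflammatory phagocyte-like cells, at 72.3 CPM against 39.2 CPM in WT ones. Cx3cr1 in monocyte-like cells went the other way without reaching 1.5-fold, at 42.0 CPM in knockout tumours and 61.8 CPM in WT tumours (-0.56).

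Bridging and receptor genes were mixed. Itgb5, an integrin chain that binds the bridging protein Mfge8, was at 119 CPM in knockout macrophages and 71.4 CPM in WT macrophages (0.73, 0.67 to 0.80). Mfge8 was at 3.16 CPM in knockout and 1.62 CPM in WT macrophages (0.97). Itgb3, another integrin chain, was at 1.56 CPM in knockout and 0.913 CPM in WT macrophages (0.78, 0.17 to 1.36), of which free RNA could give 22.02% of the knockout level and 22.96% of the WT level. Itgb3 was also past 1.5-fold in monocyte-like cells, at 1.95 CPM in knockout tumours and 1.11 CPM in WT tumours, with an interval that spans 0 (-0.15 to 1.89). Olr1, a receptor for oxidised lipoprotein, was higher in knockout macrophages (10.2 CPM, against 2.65 CPM in WT ones) and monocyte-like cells (30.6 CPM, against 17.3 CPM in WT ones), and is a leading gene of the inflammatory phagocyte-like class. The scavenger receptor Marco was lower in knockout macrophages, at 5.32 against 10.1 CPM in WT ones, with 62.2% of its knockout UMIs and 73.4% of its WT UMIs in 10 cells. Colec12 was lower there too, at 4.80 CPM in knockout and 7.61 CPM in WT macrophages, but higher in inflammatory phagocyte-like cells, where 66 knockout and 3 WT UMIs give a ratio of 2.74 (1.13 to 5.05). Cd93, which helps clear dying cells, was lower in knockout monocyte-like cells, at 47.0 against 83.3 CPM in WT ones (-0.82). The engulfment gene Dock1 was higher in knockout monocyte-like cells, at 83.2 against 53.0 CPM in WT ones (0.65).

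Among brakes, Cd24a, a ligand that restrains phagocytes, was higher in knockout macrophages (8.74 CPM, against 5.49 CPM in WT ones) and inflammatory phagocyte-like cells (56.4 CPM, against 33.9 CPM in WT ones). Siglecg, its receptor in mice, was low in each class, at 1.71 CPM in knockout macrophages and 0.604 CPM in WT macrophages, and at 6.79 CPM in knockout and 3.04 CPM in WT monocyte-like cells. Sirpb1a was listed with the brakes only as a relative of Sirpa, and whether it restrains uptake was not tested. It was lower in knockout macrophages, at 36.9 against 64.7 CPM in WT ones (-0.81). In inflammatory phagocyte-like cells it was higher in knockout tumours, with 79 knockout and 11 WT UMIs (1.13, 0.21 to 2.19).

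The 8 genes listed for digestion and efflux were all measured in these 3 classes. In knockout tumours 2 were at least 1.5-fold lower in macrophage-like cells, 3 in inflammatory phagocyte-like cells and 2 in monocyte-like cells. By the same fold 0 were higher. Of all genes 5.11%, 5.36% and 4.17% were lower in these classes in the same order. Pparg, a lipid-sensing nuclear receptor, was at 81.6 CPM in knockout macrophages and 177 CPM in WT macrophages (-1.12, -1.18 to -1.05). It was at 20.8 CPM in knockout and 45.7 CPM in WT monocyte-like cells (-1.13), and at 30.9 CPM in knockout and 52.5 CPM in WT inflammatory phagocyte-like cells (-0.76). Nr1h3, which encodes the oxysterol sensor LXR alpha, had log2 ratios of -0.68 in macrophage-like, -0.79 in monocyte-like and -0.95 in inflammatory phagocyte-like cells. Lipa, the lysosomal lipase, was at 70.4 CPM in knockout inflammatory phagocyte-like cells and 112 CPM in WT ones (-0.67). The cholesterol exporter Abca1, a target of these receptors, was at 204 CPM in knockout macrophages and 170 CPM in WT macrophages (0.26), and Abcg1, another exporter, at 123 CPM in knockout macrophages and 181 CPM in WT macrophages (-0.56), neither past 1.5-fold. The 46 genes are a description of these libraries, and nothing particular to the list was tested.

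**Figure D5:**
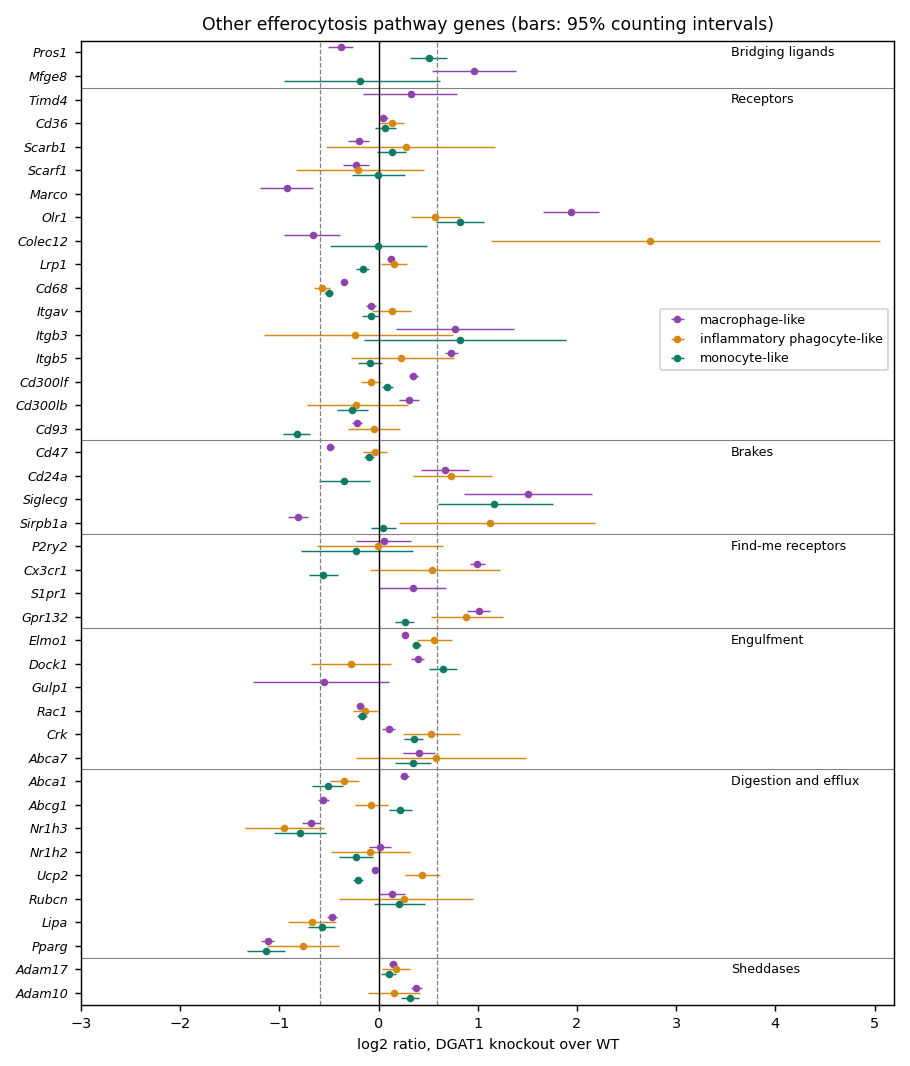
Log2 ratio, knockout over WT, of the other efferocytosis genes with at least 50 UMIs, by role, in macrophage-like, inflammatory phagocyte-like and monocyte-like cells, with 95% counting intervals and dashed lines at 1.5-fold. Pparg and Nr1h3 lie left of 0 in the 3 classes, and Cx3cr1 and Gpr132 lie near 1 in macrophage-like cells.

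In the 5 other compared classes the pathway counts are given beside the shares of all genes higher and lower. They were 0 higher and 1 lower of 24 in non-classical monocyte-like cells (10.6% and 7.91%) and 3 higher and 2 lower of 23 in neutrophil-like cells (12.5% and 9.15%). In dendritic cells they were 1 higher and 4 lower of 26 in cDC1-like cells (6.89% and 4.16%), 3 higher and 2 lower of 29 in cDC2-like cells (10.5% and 3.47%), and 6 higher and 2 lower of 26 in mature dendritic-like cells (9.35% and 3.56%). Melanoma markers were lower in knockout tumours in each compared class, for example 69.2 CPM against 161 CPM in WT macrophages, with none of the 5 at 0. Estimated free RNA was 2.32% of UMIs in both libraries, from C1q and melanoma genes together. C1q genes alone gave 1.87% in knockout tumours and 1.74% in WT tumours, and melanoma genes alone 3.62% and 3.71%. The free RNA levels given above scale with this estimate.

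For each member the 3 genes whose levels followed it most closely were found over 18 points, the 9 classes in each of the 2 libraries. The points share library and depth, so the correlations are descriptions. Mertk went with Stab1 (r = 0.95), Maf (0.92) and March8 (0.91). Axl went with Batf2, Guca1a and Vim, Sirpa with Zeb2, Fcer1g and Zeb2os, and Mrc1 with Pdxk, Dab2 and Dok2. Among those of Msr1 were Maf (0.96) and F13a1 (0.96). Folr2 went with Itga9 (0.88), Blvrb (0.88) and Ms4a7 (0.87), of which Ms4a7 is a marker of the macrophage gate. Gas6 and Lyve1 went with Ccl8 and C1q genes of that gate, Gas6 with Ccl8 (0.92), C1qa and C1qc, and Lyve1 with Ptprm (0.91), C1qa and Ccl8. Stab1 went with the gate marker Trem2 (0.95), Ccl7 (0.95) and Mertk, and Cd163 with Tm7sf3 (0.86), Pltp and Fam3c.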

How the data were processed

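The values deposited by the authors are raw UMI counts of each gene in each barcode, empty droplets included. Cell Ranger 7.2.0 wrote them, per the file headers, on build mm10, per the submitters' processing notes. Annotation and strand setting are not given in the sources used. No other sample's columns were present.

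Cells were called per library: barcodes over a UMI threshold set from the 3000 leading barcodes (11887 UMIs for knockout tumours and 17765 for WT tumours), plus barcodes of at least 500 UMIs whose profile differed from that of barcodes with at most 100 UMIs (10000 Monte Carlo draws, false discovery rate 0.01). Of the 12473 knockout and 10460 WT cells called, 11325 knockout and 9234 WT cells had at least 250 genes and at most 10% mitochondrial UMIs. Scrublet (scanpy 1.11.5) marked 388 knockout doublets (3.43%) and 185 WT doublets (2.00%), below the 9.06% (knockout) and 7.39% (WT) that 0.8% per 1000 cells would give, and these were removed, so doublets may remain.

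Each marker was scaled as log2 of 1 plus UMIs per 10000 to its 99.8th percentile, and a cell joined the class with the highest mean if that was at least 0.3 and led the next by 0.05. UMIs were summed per class and library (numpy 2.4.6, scipy 1.17.1, pandas 2.3.3). A call means at least 1.5-fold either way with at least 50 UMIs over both libraries. Intervals are exact, at 95%. They were tested on simulated data that held counting error only. That test cannot show how they hold where UMIs cluster in few cells or tumours differ. Shares of cells used cells thinned to 4000 UMIs. Likeness is Pearson's r of log2 of CPM plus 1 among genes with a mean of at least 10 CPM. For Msr1, 1 of its 3 genes is not reported here.

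All 10 members are named. Pathway genes are named where they passed 1.5-fold in the macrophage-like, monocyte-like or inflammatory phagocyte-like class, and Abca1, Abcg1 and Cx3cr1 in monocyte-like cells were added after their values were seen. Members, lists, markers and gates were chosen with earlier results of these data known. Positions are from GENCODE M21. Alternatives changed the gates, cell calling, filters, doublets, depth, weighting, scaling and free RNA. A further 3 alternatives were added after seeing the data: resident-like cells by summed level, leaving out the 3 cells with most UMIs, and leaving out resident-like cells.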

Additional observations from a re-analysis of the deposited data

Results flagged for a closer look

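For 5 members the log2 ratio, knockout over WT, was at least 1.5-fold in opposite directions in 2 classes, or had intervals on opposite sides of 0 in 2 macrophage sub-gates, and in none was that difference tested, because each group has 1 library.

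Gas6 had 0.719 in resident-like macrophages, or 0.36 by the summed-level gate, and -0.307 in cycling macrophages. Folr2 had 0.207 in resident-like macrophages and -1.16 in cycling macrophages, and the resident-like value was 0.00 without the 3 cells of each library with most UMIs. Lyve1 had 0.913 in resident-like macrophages and -1.17 in Arg1-low macrophages, where it rested on 10 knockout and 47 WT UMIs. By the summed-level gate both signs turned, to -0.14 in resident-like and 3.52 in Arg1-low macrophages. Mrc1 had 0.767 in inflammatory phagocyte-like cells and -0.592 in cDC1-like cells, where it was 0.09 at a gate score of at least 0.2. Msr1 had 1.74 in mature dendritic-like cells, where it rested on 61 knockout and 11 WT UMIs, and -0.704 in cDC1-like cells. That cDC1-like value was 0.02 with cells thinned to a matched depth. The depth of resident-like cells, a median of 24096 UMIs in knockout tumours and 34597 in WT tumours, and the macrophage markers in cDC1-like cells, 78.9 CPM in knockout tumours and 286 CPM in WT tumours, moved with these values, and their part was not tested.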

How the results depend on the processing

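Of the log2 ratios by class, 403 values under the alternatives were within counting error of the value reported, 79 moved beyond it and 10 turned the sign of a ratio whose interval left out 0. For sub-gates these were 23, 20 and 4. A further 40 values by class and 5 by sub-gate changed the sign of a ratio whose interval spans 0, such as Mertk in inflammatory phagocyte-like cells, and are counted among the others. Of the list values 180 stayed and 31 moved, and of the shares of cells 1 stayed and 19 moved when cells were not thinned. Mertk in macrophage-like cells stayed above 0 in each of 13 alternatives and Folr2 below 0 in each. The causes of the changes below were not tested.

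Ratios whose interval left out 0 changed sign as follows. Mrc1 in cDC1-like cells was 0.0919 at a gate score of 0.2, and Axl in cDC2-like cells -0.0421 at 0.4. Gas6 in monocyte-like cells was 0.14 with a lead of 0.15. Above the UMI threshold, monocyte-like Mertk was -0.16 and Sirpa -0.0254, and Sirpa was -0.0227 when scaled by the median ratio. Msr1 in cDC1-like cells was 0.0149 with doublets kept and 0.0160 with thinned cells. With macrophage sub-gates weighted alike, so that the few resident-like cells count as much as each other sub-gate, Gas6 was 0.58 and Lyve1 0.87. With resident-like cells by summed level, Lyve1 in them was -0.14, Mrc1 in cycling cells -0.0745, and Cd163 and Lyve1 in Arg1-low cells -1.43 and 3.52.

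Counts past 1.5-fold moved too. Members higher in macrophage-like cells came to 0 at 5% mitochondrial UMIs. Members lower there came to 0 with sub-gates weighted alike and 2 without resident-like cells, and the members' median to 0.28 and 0.19, or 0.14 with cells weighted alike. Members lower in monocyte-like cells came to 1 at a gate score of 0.4, a lead of 0.15, above the UMI threshold, at 5% mitochondrial UMIs and with thinned cells. Members higher there came to 1 at 20 UMIs or with 1 UMI in each library, and members lower in inflammatory phagocyte-like cells to 1 with 1 UMI in each library.

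Pathway genes lower in macrophage-like cells came to 3 at a gate score of 0.4, at a lead of 0.15 and with sub-gates weighted alike. Those higher in inflammatory phagocyte-like cells came to 7 at a gate score of 0.2 and with cells weighted alike. Those lower in monocyte-like cells came to 5 at a gate score of 0.4 and above the UMI threshold, and to 6 when scaled by the median ratio or with 1 UMI in each library, and those higher there to 2 above the UMI threshold. Those lower in inflammatory phagocyte-like cells came to 6 with 1 UMI in each library. Past 2-fold, the higher and lower pathway genes numbered 3 and 1 in macrophage-like, 2 and 0 in inflammatory phagocyte-like, and 1 and 1 in monocyte-like cells. Cd163 and Lyve1 were under 50 UMIs in each compared class outside macrophages, and Gas6 in each but monocyte-like cells, so no ratio is given there. These low counts were found in deep classes too. Monocyte-like cells held 20025627 knockout and 10858400 WT UMIs, of which 1 knockout and 2 WT UMIs were of Lyve1.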
